A study of Mus musculus with 6 samples.

Results

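Collagen genes code for the chains of the main structural proteins of the skin's extracellular matrix. Here they were taken as every gene on the array whose name has the form Col, a type number, the letter a and a chain number, which gave 41 genes of 36095, read by 63 of 55681 probes. The study compared 3 biopsies of skin tumors with 3 biopsies of healthy skin, all from female FVB/N mice, an albino inbred strain, on 1-colour Agilent arrays. The tumors, which the labels call cSCC, came from mice given DMBA, a mutagenic hydrocarbon, on the skin, then the promoting phorbol ester PMA (also called TPA in the labels) for 6 weeks, a second DMBA dose, and PMA for 14 weeks more. The healthy skin was treated with acetone. No treated skin without a tumor was among the samples, so the effect of the treatment and that of the tumor cannot be told apart. The design text says that tissue was taken at various times of the protocol, and the time of each biopsy is not given in the sources used here.

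Each collagen chain carries long runs of the repeat Gly-X-Y, and chains wind round each other in trimers. Fibrillar collagens (types I, II, III, V, XI, XXIV and XXVII) assemble into fibres, with types I, III and V as the fibre makers of the dermis. Type IV collagen forms the sheet-like network of basement membranes: its Col4a1 and Col4a2 chains join in a trimer found in basement membranes of nearly all tissues, while the Col4a3, Col4a4, Col4a5 and Col4a6 chains form trimers of restricted sites, among them a trimer of Col4a5 and Col4a6 chains in the basement membrane of the epidermis. Types VII, XV, XVII and XVIII belong to the same zone, as anchoring fibrils, as a transmembrane protein of hemidesmosomes, and as proteoglycans. The remaining types coat fibrils, span membranes, form beaded filaments or form short networks.

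The Gly-X-Y repeat is visible in the array's own probes, which are 60 bases long. Of the 63 collagen probes, 5 held at least 4 GGN codons (glycine) at the spacing of the repeat, in a reading frame without a stop codon. They read Col13a1, Col14a1, Col15a1, Col16a1 and Col25a1. The first sequence below is the Col15a1 probe, with an unbroken repeat. The second is a Col4a4 probe, shown because type IV chains are known for interruptions of the repeat. Capitals mark the GGN codons of the frame, 6 in the Col15a1 probe (chr4:47283786-47283845, mm9, plus strand) and 5 in the Col4a4 probe (chr1:82515563-82515622, mm9, minus strand).
Col15a1 probe: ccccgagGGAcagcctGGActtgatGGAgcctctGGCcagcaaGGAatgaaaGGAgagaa
Col4a4 probe: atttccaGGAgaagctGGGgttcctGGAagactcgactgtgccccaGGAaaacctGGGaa

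The genes of type IV chains lie in pairs that start close together and run in opposite directions. Col4a1 with Col4a2 and Col4a5 with Col4a6 are shown because the members of each pair moved in the same direction here. Col4a3 and Col4a4 are left out, as Col4a3 was not tested. The size of change was not shared by Col4a5 and Col4a6: their ratio differed by 2.73 on the log2 scale between tumors and healthy skin, with the Col4a6 probe tested. In RefSeq's annotation (GRCm38.p6) the starts of Col4a2 (plus strand) and Col4a1 (minus strand) lay 21 bases apart, so that the first 22 bases of both genes overlap, at chr8:11312805-11312826. The starts of Col4a5 (plus strand) and Col4a6 (minus strand) lay 1343 bases apart on chromosome X. The windows printed, of 231 and 250 bases, lie before these starts of Col4a5 (chrX:141475169-141475399, plus strand) and of Col4a6 (chrX:141474077-141474326, minus strand). Col4a5 also has an outer annotated start further upstream. The Col4a5 window was cut 30 bases past that outer start, and the GC box of this window lies in those 30 bases. Capitals mark 2 motifs, searched on both strands together with the TATA box, which neither window held. The GC box (GGGCGG on either strand) was in the shared stretch and in both windows, and the CCAAT box in the Col4a5 window. Among the 250 bases upstream of 32851 RefSeq starts, 32.7% held the GC box, 33.8% the CCAAT box and 12.4% the TATA box (searched as TATAAA), so these motifs are common, and a match is a description of letters and not a binding site. For the 33 collagen genes with such a window the shares were 60.6%, 36.4% and 15.2%, and the difference was not tested. These shares are for windows of 250 bases and do not apply to the shared stretch of 22 bases.
Col4a2 and Col4a1, shared first bases: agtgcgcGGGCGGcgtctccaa
Col4a5 upstream: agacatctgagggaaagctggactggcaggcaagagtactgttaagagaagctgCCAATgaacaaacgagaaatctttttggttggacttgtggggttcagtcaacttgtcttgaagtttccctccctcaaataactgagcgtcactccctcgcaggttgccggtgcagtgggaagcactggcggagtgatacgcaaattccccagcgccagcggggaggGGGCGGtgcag
Col4a6 upstream: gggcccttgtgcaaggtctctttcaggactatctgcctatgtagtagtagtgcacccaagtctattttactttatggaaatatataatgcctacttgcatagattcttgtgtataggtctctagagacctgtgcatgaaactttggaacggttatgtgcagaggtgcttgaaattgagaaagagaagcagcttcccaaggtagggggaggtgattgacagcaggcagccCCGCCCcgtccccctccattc

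Values are log2 signals after background subtraction, minus the array's 75th percentile, so that 0 stands for a probe at that percentile and every change is relative to it. Arrays of 1 group correlated at 0.937 to 0.971. The 75th percentile of signal was 648 to 897 on the tumor arrays and 242 to 654 on the healthy skin arrays, and healthy skin 3 had the lowest. The median background signal was 85 on tumor 1 and 23 to 26 on the other arrays, and tumor 1 also had the fewest spots well above background (48.7%, against 57.4% to 65.4% elsewhere). Whether each biopsy was taken from a mouse of its own is not stated, so the p-values weigh a difference against the spread among these 6 biopsies only, and 3 arrays a group limit the precision. Results that rest on tumor 1 or on healthy skin 3 are therefore given without them where that changes a call.

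Of the 41 collagen genes, 34 passed the filter on dim probes (3 or more of the 6 arrays had to be well above background) and were tested with all 24756 features in 1 limma fit. At a Benjamini-Hochberg adjusted p under 0.05, 13 of the 34 were called (38.2%), 8 higher and 5 lower in tumors. Among all features the share called was 25.9%, made up of 10.3% higher and 15.6% lower. The median log2 fold change of the 34 was 0.50, against -0.16 over all features. The 2 fibrillar genes called of 11 tested (18.2%) were both higher, and the fibrillar median was 1.21. Of 9 basement membrane genes tested, 6 were called (66.7%), 3 higher and 3 lower. Their median was -1.17, but -0.27 with spike-in scaling, -0.54 as the mean of each gene's probes and 0.50 where all 6 arrays had to be well above background, so its sign and size are not settled. Of 14 other genes tested, 5 were called (35.7%), 3 higher and 2 lower, with a median of -0.10. The split of calls moves with the scaling: set on the spike-in probes instead of the 75th percentile, 76.9% of the 13 calls were higher in tumors, against 61.5% here, and the median of all features was then 0.73. It also moves with single arrays: 4 genes were higher and 6 lower without healthy skin 2, 4 higher and 5 lower without tumor 2, and 6 higher and 8 lower without tumor 3. The collagen median of 0.50 was 0.21 without healthy skin 2, 0.17 without tumor 3 and 0.06 with the slide row as a block. In the same settings the median of all features was -0.21, -0.14 and -0.33. Col6a4 and Col22a1 passed the filter only through the group in which they were bright. Their calls, which are among the 13 and among the 5 of the other types, thus carry little weight. All 3 tumors lay above all 3 healthy skin samples in 11 of the 34 genes, against 20.7% of all features, and below them in 5 of the 34, against 29%. In bulk tissue, fewer cells of a type and less RNA per cell cannot be told apart, and this touches every result here.

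**Figure D1:**
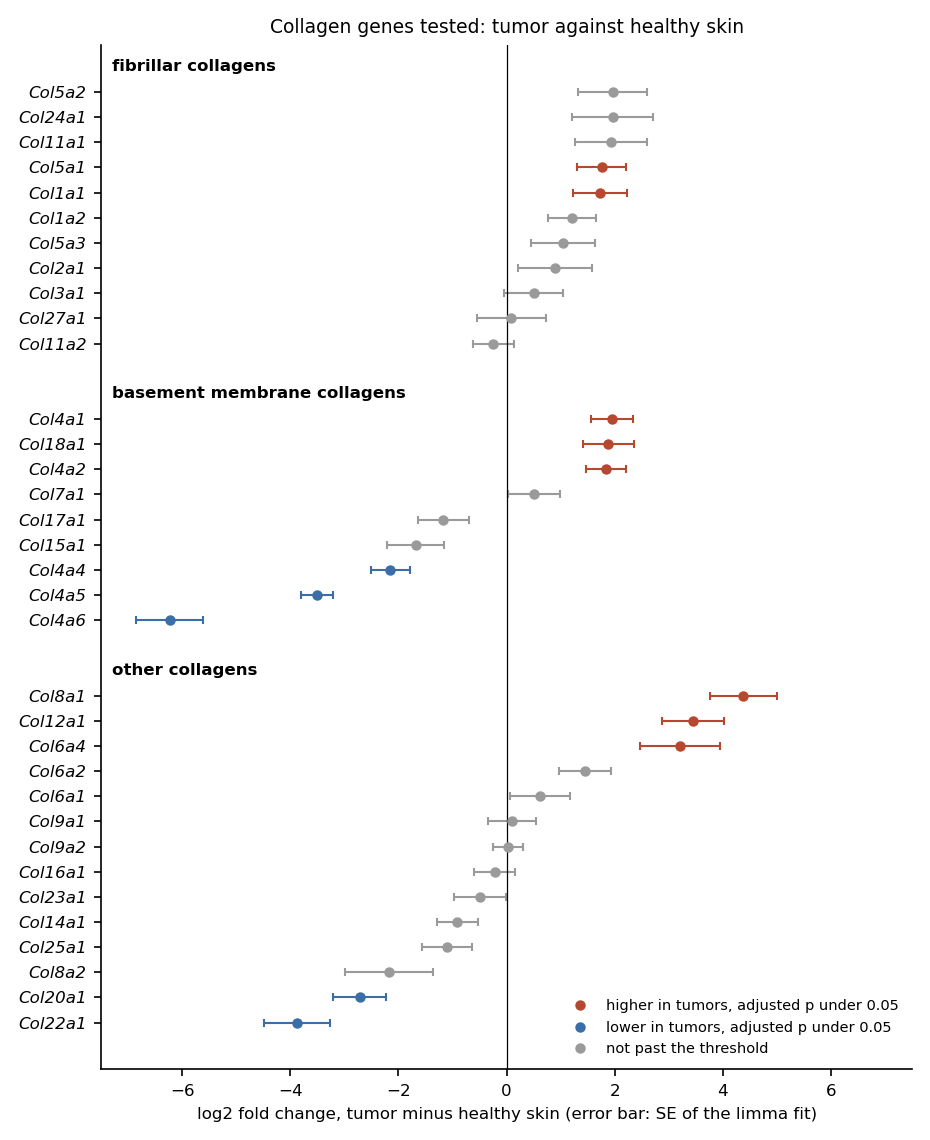
Log2 fold change (tumor minus healthy skin, x axis) of the 34 collagen genes tested, grouped by class from top to bottom, with bars for the SE of the limma fit (3 tumor and 3 healthy skin arrays). The 11 fibrillar genes lie between -0.25 and 1.96, while the basement membrane genes spread from -6.23 to 1.95 and the other genes from -3.87 to 4.38.

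Type IV collagen was divided by chain. Both chains of the widespread trimer were higher in tumors, and the 3 chains tested of the restricted trimers were lower, so that all 5 tested type IV genes were called. Col4a1 (probe at chr8:11199009-11199068, mm9) stood at 2.95, 3.07 and 3.88 in tumors 1 to 3, against 1.86, 1.38 and 0.81 in healthy skin 1 to 3. Col4a2 (chr8:11448840-11448899) stood at 2.34, 2.94 and 3.47 in tumors, against 1.49, 0.95 and 0.83 in healthy skin. Every tumor lay above every healthy skin sample for both genes. In limma, Col4a1 was 3.86-fold higher in tumors (log2 fold change 1.95 ± 0.39, SE, adjusted p = 0.0123) and Col4a2 was 3.55-fold higher (1.83 ± 0.37, adjusted p = 0.0129). The ratio of Col4a1 to Col4a2 differed by only 0.12 on the log2 scale between tumors and healthy skin, and by -0.13 to 0.35 in single tumors against the healthy mean.

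Col4a6 showed the largest decrease of the collagen genes. The probe tested (chrX:137599990-137600049, mm9) stood at -4.94, -5.55 and -3.17 in tumors, where it was well above background on 1 of 3 arrays, against 1.18, 1.65 and 2.20 in healthy skin. The groups lay far apart, and the fitted difference was a 75.2-fold lower level in tumors (log2 fold change -6.23 ± 0.62, adjusted p = 0.00101 in limma). A second Col4a6 probe (chrX:137601433-137601491), stood at -2.46, -2.72 and -2.86 in tumors, against -1.79, -2.04 and -1.36 in healthy skin. Its groups did not overlap either, but its difference was 1.93-fold lower (-0.95 ± 0.30), and when each probe was fitted by itself its adjusted p was 0.0533. The direction is thus shared by both probes and the size is not. What makes the probes differ was not tested.

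Col4a5 (probe at chrX:138123547-138123606) stood at -3.50, -4.17 and -3.80 in tumors, where 2 of 3 arrays were well above background, against -0.44, -0.33 and -0.19 in healthy skin. In tumors it was 11.4-fold lower (log2 fold change -3.51 ± 0.29, adjusted p = 0.00058 in limma) and had the lowest adjusted p of the collagen genes. Col4a4 (chr1:82447879-82447938) stood at -3.49, -3.05 and -3.64 in tumors, where 2 of 3 arrays were well above background, against -1.45, -1.66 and -0.63 in healthy skin, and was 4.43-fold lower in tumors (-2.15 ± 0.36, adjusted p = 0.00643). For both genes all tumors lay below all healthy skin samples. The Col4a4 probe printed above, which reads the coding repeat, stood at -4.15, -5.08 and -5.50 in tumors, against -3.44, -4.05 and -3.08 in healthy skin, also without overlap, with a difference of -1.39 ± 0.43 (adjusted p = 0.0518 in the fit of single probes). Col4a3, whose chain joins those of Col4a4 and Col4a5, was not tested: it was well above background on none of the tumor arrays and on 1 of 3 healthy skin arrays.

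Set against each other within the arrays, the change of the Col4a1 level relative to that of Col4a5 was 5.46 on the log2 scale, and it was 4.78, 5.57 and 6.01 in tumors 1, 2 and 3, each against the healthy mean. This ratio is built from the values given above, in which Col4a1 was higher and Col4a5 lower in all 3 tumors. It restates those results and adds no support of its own. Of the keratinocyte markers, Krt5 (8.90, 8.70 and 8.60 in tumors, against 8.70, 8.66 and 9.59 in healthy skin) and Trp63 (3.65, 4.46 and 3.74 in tumors, against 4.09, 4.17 and 4.38 in healthy skin), both marks of basal cells, had overlapping groups. Krt14, a basal keratin as well, stood at 7.62, 8.42 and 8.34 in tumors, against 6.92, 7.14 and 7.42 in healthy skin, with the groups apart (0.97, adjusted p = 0.0659 in limma). The whole list of 6 keratinocyte markers had 1 called higher (Dsg3) and 2 called lower (Krt1 and Krt10, of suprabasal cells), with list medians of 3.70 to 5.79 in tumors and 6.42 to 6.97 in healthy skin. All 6 skeletal muscle markers and 5 of 5 tested Schwann cell markers were lower in tumors as well. Skeletal muscle medians were 0.46 to 1.85 in tumors and 5.77 to 7.40 in healthy skin, and Schwann cell medians -2.88 to -2.67 in tumors and -0.17 to 1.11 in healthy skin. Endothelial markers, 1 called higher (Emcn) and 1 lower (Cd34) of 6, had medians of -0.42 to 0.51 in tumors and -0.32 to -0.19 in healthy skin, and 3 of 6 pericyte and smooth muscle markers were lower. The part of these tissues in the higher Col4a1 and Col4a2 and the lower Col4a4, Col4a5 and Col4a6 levels was not tested.

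**Figure D2:**
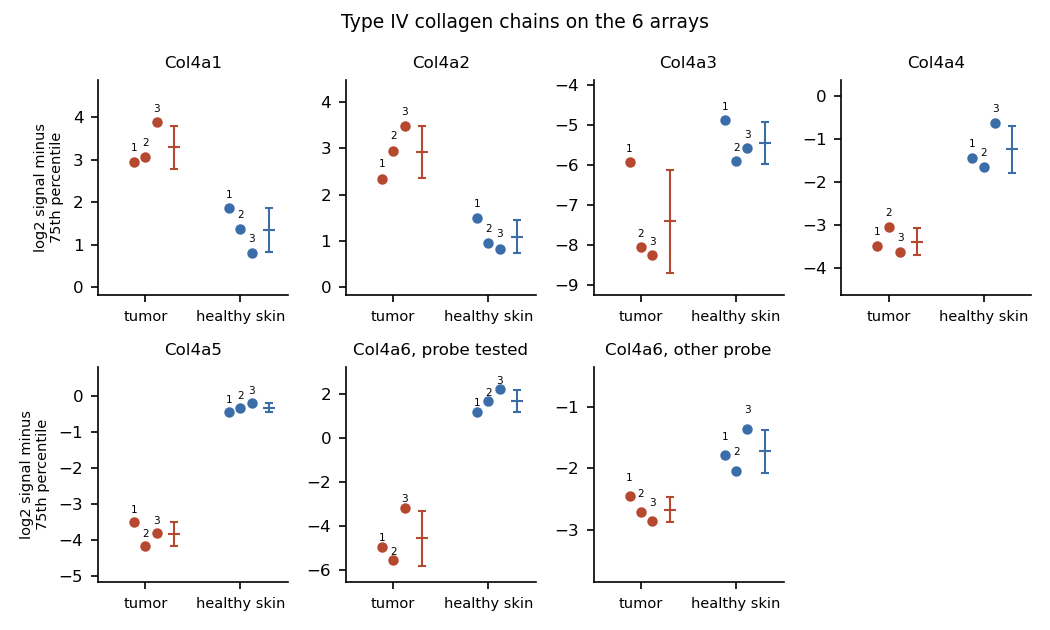
Level of each type IV chain (log2 signal minus the array's 75th percentile, y axis, with a scale of its own in each panel) on the 3 tumor arrays (left in each panel) and the 3 healthy skin arrays (right), with points numbered by replicate and bars for mean ± SD. Col4a1 and Col4a2 lie higher in all tumors, while Col4a4, Col4a5 and both Col4a6 probes lie lower; Col4a3 was not well above background on any tumor array.

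The other basement membrane collagens went separate ways. Col18a1, a proteoglycan whose cleavage releases the fragment endostatin (probe at chr10:76514926-76514985), stood at 4.76, 5.64 and 4.18 in tumors, against 2.92, 2.43 and 3.58 in healthy skin, without overlap. It was 3.68-fold higher in tumors (log2 fold change 1.88 ± 0.47, adjusted p = 0.0252 in limma), and its second probe was 5.96-fold higher. The Col18a1 call was lost without healthy skin 1, healthy skin 2, tumor 1 or tumor 2 (adjusted p = 0.0606 to 0.0767). Col7a1, the chain of the anchoring fibrils that fix the epidermis to the dermis, stood at 4.29, 5.71 and 5.96 in tumors, against 4.53, 4.67 and 5.26 in healthy skin, and its groups overlapped (0.50 ± 0.48, adjusted p = 0.466). Col17a1, the transmembrane collagen of hemidesmosomes in basal keratinocytes, stood at 3.73, 4.98 and 3.71 in tumors, against 4.82, 5.10 and 6.00 in healthy skin. Tumor 2 lay within the range of healthy skin, and the estimate of -1.17 ± 0.47 did not pass the threshold (adjusted p = 0.107). Col15a1, the relative of Col18a1 in vessel and muscle basement membranes, stood at -3.02, -3.29 and -1.92 in tumors, against -0.66, -2.04 and -0.47 in healthy skin, with an estimate of -1.68 ± 0.53 (adjusted p = 0.0542). That is the probe printed above, and the gene's other 2 probes gave 0.11 and -0.06, so the Col15a1 estimate rests on 1 probe of 3.

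Fibrillar collagens had estimates above 0 in 10 of 11 genes, against 10855 of all 24756 features, but only Col1a1 and Col5a1 passed the threshold. Col1a1, the main chain of type I collagen (probe at chr11:94813115-94813174, mm9), stood at 6.33, 6.58 and 7.08 in tumors, against 5.33, 3.84 and 5.62 in healthy skin, and was 3.32-fold higher (log2 fold change 1.73 ± 0.50, adjusted p = 0.0412 in limma). Col5a1, which regulates the start of fibril assembly (chr2:27892892-27892951), stood at 2.34, 2.92 and 3.75 in tumors, against 1.24, 0.69 and 1.81 in healthy skin, and was 3.38-fold higher (1.76 ± 0.45, adjusted p = 0.0287). All tumors lay above all healthy skin samples for both genes. Both calls depend on single arrays: Col1a1 was 1.18 without healthy skin 2 (adjusted p = 0.0794) and Col5a1 1.48 (adjusted p = 0.0856), and leaving out healthy skin 1, tumor 2 or tumor 3 ended both calls as well. Leaving out tumor 1 ended that of Col1a1 (adjusted p = 0.0705).

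Col1a2, the partner of Col1a1 in the type I trimer, stood at 6.97, 7.38 and 8.06 in tumors, against 6.68, 5.44 and 6.68 in healthy skin. The groups did not overlap, but the estimate of 1.21 ± 0.45 did not pass the threshold (adjusted p = 0.0883 in limma). Col3a1, the homotrimer that accompanies type I collagen in skin, stood at 5.14, 5.55 and 6.59 in tumors, against 5.75, 4.25 and 5.78 in healthy skin, with overlap (0.50 ± 0.55, adjusted p = 0.519). Col5a2, which joins Col5a1 chains, stood at -0.30, 1.17 and 2.11 in tumors, against -1.12, -1.49 and -0.28 in healthy skin. Its estimate of 1.96 ± 0.63 was as large as that of Col5a1, yet tumor 1 lay just below healthy skin 3 and the adjusted p was 0.056. Without tumor 1 it passed the threshold at 2.60.

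The remaining fibrillar genes were nearer the detection limit or changed less. Col11a1, a cartilage chain also made by activated fibroblasts, stood at -4.78, -3.34 and -3.66 in tumors, against -4.52, -6.97 and -6.09 in healthy skin (1.93 ± 0.66, adjusted p = 0.0688), and Col24a1 stood at -4.05, -3.46 and -1.06 in tumors, against -4.18, -5.04 and -5.22 in healthy skin (1.96 ± 0.75, adjusted p = 0.0936). For each, 2 tumors and 1 healthy skin sample were well above background, and only for Col24a1 were the groups apart. Col5a3, Col2a1, Col27a1 and Col11a2 had estimates of 1.04, 0.90, 0.09 and -0.25, with overlapping groups. Col11a2, the only fibrillar gene below 0, was above 0 under median, quantile and spike-in scaling.

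**Figure D3:**
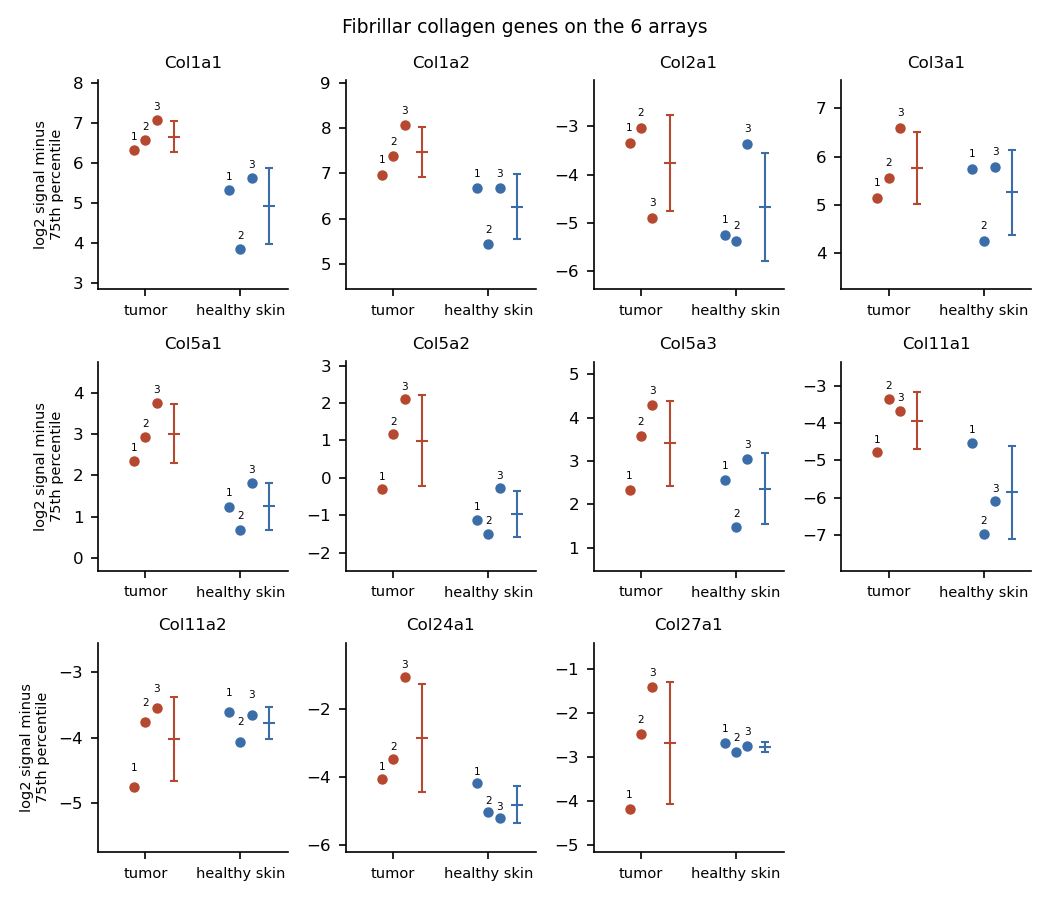
Level of the 11 fibrillar collagen genes (log2 signal minus the array's 75th percentile, y axis, with a scale of its own in each panel) on the 3 tumor arrays (left) and the 3 healthy skin arrays (right), with points numbered by replicate and bars for mean ± SD. In 9 of the 11 genes tumor 3 is the highest tumor, and in 10 of them tumor 1 is the lowest tumor and healthy skin 2 the lowest healthy skin sample.

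The fibrillar genes shared an order of the arrays within each group. Tumor 3 was the highest tumor for 9 of 11 fibrillar genes, against 25.7% of all features, and tumor 1 was the lowest for 10 of 11, against 30.2% of all features. Healthy skin 2 was the lowest healthy skin sample for 10 of 11, against 29.7%. The genes are not independent of each other, and these counts describe 6 arrays. Fibroblast markers, the genes of the cells that make most dermal collagen, showed tumor 3 as the highest tumor in 10 of 10, but healthy skin 2 as the lowest healthy sample in 1 of 10. Of these 10 markers, none was called higher and 2 were called lower (Dpt and Dcn), and their fold changes had a median of -0.64 on the log2 scale, with list medians of 0.85, 1.6 and 2.85 in tumors, against 2.34, 2.16 and 2.93 in healthy skin. By estimate, Twist2 (1.05), Pdgfrb (0.63) and Vim (0.21) lay above 0 and the other fibroblast markers below 0. The part of fibroblast content in the levels of the fibrillar genes and of these markers was not tested. Adipocyte markers were lower in tumors in 5 of 5 tested, hair follicle markers in 3 of 5, and leukocyte markers in 2 of 5 with 1 higher.

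Of the remaining types, 3 genes were higher in tumors. Col8a1, a chain of the short network collagen of vessel walls and the cornea, stood at -0.56, 1.52 and 1.76 in tumors, against -3.23, -4.00 and -3.20 in healthy skin. It had the largest increase of the collagen genes, 20.9-fold (log2 fold change 4.38 ± 0.62, adjusted p = 0.00351 in limma; probe at chr16:57624471-57624530, mm9). Its partner chain Col8a2 stood at -3.26, -1.86 and -0.60 in tumors, against -0.91, 0.13 and 1.60 in healthy skin, with an estimate of -2.18 ± 0.81 that did not pass the threshold (adjusted p = 0.0869). A second Col8a2 probe, dimmer and well above background on 2 tumor and 2 healthy skin arrays, gave -0.45 ± 0.60 (adjusted p = 0.597 in the fit of single probes). With the brighter probe, the level of Col8a1 relative to that of Col8a2 was 6.56 higher in tumors on the log2 scale, and 6.11 to 7.13 higher in single tumors, a size that rests on 1 of the 2 Col8a2 probes.

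Col12a1, a collagen that binds to the surface of type I fibrils, stood at 2.68, 3.21 and 4.43 in tumors, against -0.37, -0.64 and 0.97 in healthy skin. It was 11-fold higher in tumors (log2 fold change 3.45 ± 0.58, adjusted p = 0.00651 in limma), with no overlap (probe at chr9:79446895-79446954, mm9). Col14a1, which belongs to the same subfamily of fibril-associated collagens, stood at 0.45, 0.90 and 1.36 in tumors, against 1.24, 1.93 and 2.26 in healthy skin, and its estimate of -0.91 ± 0.38 did not pass the threshold (adjusted p = 0.117). A second Col14a1 probe, dimmer but well above background on all 6 arrays, gave -0.01 ± 0.47 (adjusted p = 0.99 in the fit of single probes). The Col14a1 estimate thus rests on 1 probe of 2. Col6a4, a chain of the beaded filament collagen VI (probe at chr9:105893016-105893075), stood at -2.47, -3.42 and -5.58 in tumors and was well above background on all 3, against -7.18, -7.40 and -6.50 in healthy skin, where no array was well above background. A second Col6a4 probe was well above background on no array, and its groups overlapped. By the first probe, the tumor mean exceeded that of healthy skin by at least 2.02-fold. That is a bound on the group means and not on each tumor. The adjusted p of 0.02 in limma belongs to the fitted difference of 3.21 on the log2 scale and not to the bound. This call rests on dim signals: with another background correction (normexp) the estimate was 0.25, and without healthy skin 1, healthy skin 2 or tumor 2 the adjusted p was 0.05 to 0.06. The abundant chains of collagen VI had estimates of 0.62 (Col6a1, adjusted p = 0.432) and 1.45 (Col6a2, adjusted p = 0.0644), and only the groups of Col6a2 were apart.

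Of the same types, 2 genes were lower in tumors. Col22a1, a collagen of tissue junctions such as those of muscle and tendon (probe at chr15:71628906-71628965, mm9), stood at -5.21, -7.70 and -7.18 in tumors, where no array was well above background, against -3.03, -2.64 and -2.83 in healthy skin, where all were. It was at least 4.85-fold lower in tumors. The adjusted p of 0.00511 in limma belongs to the fitted difference of -3.87 on the log2 scale and not to this bound. With normexp the fitted log2 fold change was -1.6, and in the authors' deposited values -1.29, both still called. Both are smaller than the bound, which is -2.28 on the log2 scale, so the bound belongs to the processing used here. Col20a1, a fibril-associated collagen (chr2:180752070-180752129), stood at -4.29, -2.76 and -3.80 in tumors, with 2 of 3 arrays well above background, against -0.92, -1.52 and -0.24 in healthy skin. It was 6.60-fold lower (log2 fold change -2.72 ± 0.49, adjusted p = 0.0084), and its second probe was 4.60-fold lower. No tumor reached the healthy skin range for either gene. The skeletal muscle, Schwann cell and adipocyte markers tested were all lower in tumors too, as given above. The part of these tissues in the lower Col22a1 and Col20a1 levels was not tested.

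**Figure D4:**
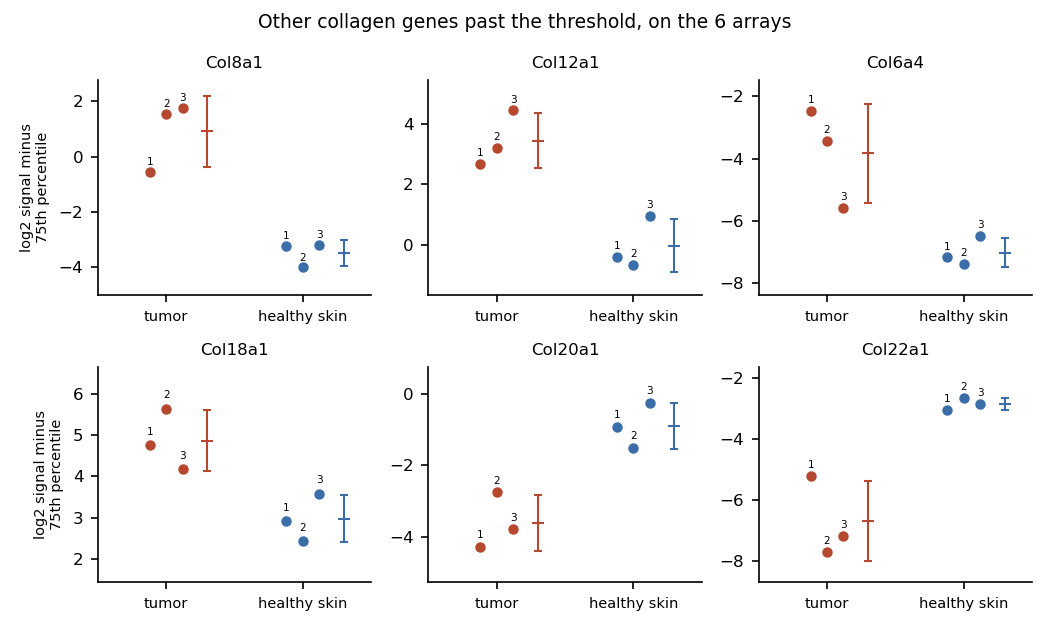
Level of the called collagen genes outside the fibrillar class and type IV (log2 signal minus the array's 75th percentile, y axis, with a scale of its own in each panel) on the 3 tumor arrays (left) and the 3 healthy skin arrays (right), with points numbered by replicate and bars for mean ± SD. Col8a1, Col12a1, Col6a4 and Col18a1 lie higher in tumors and Col20a1 and Col22a1 lower, with no overlap in any panel.

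The other 5 tested genes of these types did not pass the threshold. Col16a1, Col9a1, Col9a2 and Col23a1 had estimates between -0.50 and 0.10, and Col25a1 had -1.10 ± 0.46 (adjusted p = 0.116 in limma). Their groups overlapped. Of the 7 genes not tested, Col6a6 and Col28a1 were well above background on no array. Col9a3 and Col10a1 (which marks hypertrophic cartilage) were well above background on 1 tumor array each. Col13a1, a transmembrane collagen, was well above background on 2 tumors and on no healthy skin array, with a bound of at least 1.13-fold in favour of tumors. Col19a1 was well above background on 1 healthy skin array and on no tumor. Of the cartilage markers set beside them, Matn1, Matn3 and Hapln1 did not pass the filter either (Matn1 was well above background on 2 healthy skin arrays and no tumor, at least 2.54-fold lower in tumors), 1 of the 3 tested (Comp) was lower in tumors, and neither of the 2 bone markers tested was called.

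Several probes passed the filter in 9 collagen genes, and in 7 of these the probes shared a direction, counting Col14a1 at -0.91 and -0.01. The 2 others were Col15a1 and Col16a1, neither of which was called. Fitted by themselves, 15 of 46 collagen probes were called, against 8917 of 34283 probes in all. Some genes below the threshold passed it when 1 array was left out: Col11a1 without healthy skin 1 (2.61), Col15a1 without healthy skin 2 (-2.18) or tumor 3 (-2.09), Col8a2 without tumor 3 (-2.83), Col25a1 without tumor 3 (-1.61) and Col6a2 without tumor 1 (1.86). Without both tumor 1 and healthy skin 3, Col7a1 passed at 1.24, Col5a2 passed at 2.94, and Col1a1, Col18a1 and Col6a4 were no longer called (adjusted p = 0.0597 to 0.071 in limma).

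The 3 tumors and healthy skin 3 lay in 1 row of the slide, and healthy skin 1 and 2 in the other. Within the shared row, where healthy skin 3 stood alone and only the tumors gave a spread, 5 collagen genes were called, Col4a1 higher and Col4a4, Col4a5, Col4a6 and Col20a1 lower in tumors, and the fibrillar genes were at 1.04 (Col1a1) and 1.19 (Col5a1), neither called. With the row as a block, 10 of 34 collagen genes were called, 4 higher and 6 lower. Of all 24756 features, 8437 were called in that fit, 3212 higher and 5225 lower. The collagen share was then below that of all features, unlike in the main fit. Col8a1 was 4.11 within the row (adjusted p = 0.0536 in limma), Col12a1 2.47 (adjusted p = 0.0811), Col4a2 2.09 (adjusted p = 0.0584), Col18a1 1.27 (adjusted p = 0.211), Col6a4 2.68 (adjusted p = 0.181) and Col22a1 -3.87 (adjusted p = 0.0623). All kept their direction.

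The genes that process, bind and degrade collagen were listed as 29 biosynthesis, 10 receptor and 8 degradation genes, of which 45 were tested, 12 called higher and 4 lower in tumors (35.6%, against 25.9% of all features; median 0.77 as fitted, and 0.67 with genes that have only a bound at that bound). Of the 28 biosynthesis genes tested, 5 were higher and 3 lower, a share of 28.6% that is near the 25.9% over all features, with a median of 0.59. P4hb, a subunit of the prolyl hydroxylase that stabilises the helix, was 4.79-fold higher (adjusted p = 0.0217 in limma), Fkbp10, a chaperone of the endoplasmic reticulum, 3.87-fold higher (adjusted p = 0.0283), and Lox, which crosslinks fibrils, 3.89-fold higher (adjusted p = 0.0317). Adamts14, a procollagen peptidase, was 6.98-fold lower (adjusted p = 0.0026), Pcolce2, an enhancer of procollagen cleavage, 5.72-fold lower (adjusted p = 0.00868), and Colgalt2, a collagen galactosyltransferase, 5.39-fold lower (adjusted p = 0.00963). Serpinh1, the collagen chaperone, stood at 3.68, 3.68 and 4.50 in tumors, against 3.56, 2.74 and 5.17 in healthy skin, with full overlap.

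Of 9 receptor genes tested, the integrin chain Itgb1 was 3.26-fold higher (adjusted p = 0.0105 in limma) and the receptor kinase Ddr1 4.61-fold lower (adjusted p = 0.0103), with a median of 0.84; 2 of 9 is 22.2%, below the share over all features. Of the 8 degradation genes, 6 were called higher in tumors and none lower. Mmp1a, Mmp1b and Mmp8 were well above background on no healthy skin array and passed the filter through the tumors alone, so that their count carries little weight. The list's median was 3.52 as fitted and 1.98 with these 3 genes at their bounds. Mmp1b, a mouse relative of interstitial collagenase, stood at -2.37, -1.91 and -2.73 in tumors, against -6.68, -6.99 and -6.49 in healthy skin. No healthy skin array was well above background, and Mmp1b was at least 5.65-fold higher in tumors. Mmp13, the main interstitial collagenase of mice, stood at 1.98, 4.93 and 5.29 in tumors, against -7.19, -4.70 and -6.44 in healthy skin, where 1 array was well above background (log2 fold change 10.18 ± 0.97, adjusted p = 0.000907). Mmp8, the neutrophil collagenase, was at least 6.40-fold higher. The adjusted p of Mmp1b (0.000414) and of Mmp8 (0.00106) in limma belong to fitted differences of 4.39 and 4.86 on the log2 scale. They do not test the bounds.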

How the data were processed

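Total RNA (0.2 µg, RIN 9 per the labels) of 3 tumor and 3 healthy skin biopsies was hybridised as Cy3-labelled copies to 1-colour Agilent arrays of 62976 spots. The deposited intensity values come from Agilent Feature Extraction 10.7.3.1 per the file headers, after subtraction of a background fitted per spot. A deposited series table holds log2 values and served as an alternative. The submitters' processing notes name limma and give no version.

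Processed signals were put on the log2 scale and each array's 75th percentile was subtracted. Outlier spots were dropped, at a cost of 180 of 55681 probes, and no spot was saturated. A probe entered the test if 3 or more of the 6 arrays showed it well above background (34283 probes). Each gene was represented by its brightest such probe, for 24756 features in all. The groups were compared with lmFit and eBayes of limma 3.58.1 (R 4.3.3), two-sided and with no block, with Benjamini-Hochberg adjustment over all features and a threshold of 0.05. The script was tested on simulated data. Where a group had no array well above background for a probe, its level there is a bound. The fold is then "at least" the bright group's mean over the mean of a floor, which on each array is the dimmest signal still well above background or the probe's own, whichever is higher. The p-value given for such a gene is that of the fitted difference and not of the bound. Probe positions are from the array's mm9 annotation. Gene names and upstream windows are from RefSeq tables (GRCm38.p6), which held a window for 33 of the 41 collagen genes. Values on every array are given for called genes, for a panel of skin collagens and for exceptions within a type. Of the enzyme and receptor lists, up to 3 called genes per direction are named, by adjusted p; Serpinh1 was chosen after its values were seen. Members and lists were chosen with earlier results of these data known. The closing section gives the effect of 22 alternatives.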

Additional observations from a re-analysis of the deposited data

How the results depend on the processing

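Across 22 alternatives, Col4a5 and Col4a6 were called wherever they were tested, and Col4a6 ranged from -6.93 to -0.95, the last value where a probe had to be well above background on all 6 arrays and the second Col4a6 probe stood for the gene. Col8a1, Col12a1 and Col4a1 were called in 21 of 22, Col4a2 in 20 of 22, Col5a1 in 14, Col18a1 in 12 and Col1a1 in 11. Col6a4 was called in 12 of 21. Spike-in scaling ended the calls of Col4a4 (-1.26) and Col20a1 (-1.83). The 13 collagen calls became 20 with array weights, 5 within slide row 2 alone and 5 when tested against a log2 fold change of 1 (treat). The 2 fibrillar calls became 1 with quantile normalization, 5 with median scaling, 4 with spike-in scaling, 4 with normexp and 6 with array weights. They became 0 without the filter on dim probes (6 at an unadjusted p under 0.05 in limma), 0 with the slide row as a block (0 unadjusted), 0 within row 2 (1 unadjusted) and 0 with treat (0 unadjusted), and 0 to 2 when an array was left out. The 6 basement membrane calls became 2 with treat. The 5 other calls became 2 when all 6 arrays had to be above background, 8 with array weights, 1 within row 2 and 3 with treat. The 6420 calls over all features became 2686 with spike-in scaling, 3920 without the filter, 9857 with array weights, 1666 with treat and 3840 (without tumor 2) to 5458 when an array was left out, with 4059 without healthy skin 2. The 16 enzyme and receptor calls became 10 without the filter, 10 within row 2, 5 with treat and 10 (without healthy skin 2) to 17 when an array was left out. The cause of these shifts was not tested.

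No called collagen gene changed sign. Among genes not called, Col11a2 was 0.13 with quantile normalization, 0.12 with median scaling, 0.64 with spike-in scaling, 0.11 in the authors' deposited values and 0.18 without healthy skin 3 and tumor 1 together. Col16a1 was 0.15 with median scaling, 0.67 with spike-in scaling, 0.03 as a mean of probes, 0.07 with array weights and 0.16 without those 2 arrays. Col23a1 was 0.39 with spike-in scaling. Blocking on the slide row, and likewise within row 2, Col23a1 was 0.19, Col2a1 -0.38, Col3a1 -0.02, Col6a1 -0.29 and Col9a1 -0.73. With normexp, Col2a1 was 0.00, Col9a1 -0.39 and Col9a2 -0.21. Col9a2 was -0.12 with array weights and -0.22 without healthy skin 3 and tumor 1. Leaving out 1 array gave -0.49 to 0.12 for Col11a2, -0.46 to 0.13 for Col16a1, -0.55 to 0.84 for Col27a1, 0.00 to 0.81 for Col3a1, -0.18 to 0.52 for Col9a1 and -0.11 to 0.12 for Col9a2.

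Tumors and healthy skin share replicate numbers in the titles, while the descriptions number the same biopsies otherwise and share no number between the groups. By the title numbers, same-numbered arrays correlated in their deviations from the group means at 0.10, 0.13 and -0.08. The other combinations correlated at -0.27 to 0.17. Deviations from means of 3 arrays are tied to each other, so these values cannot decide whether the numbers pair the arrays. With a replicate block, 15 collagen genes were called, 8 higher and 7 lower. The precision is limited by 3 arrays a group and, for Col6a4, Col13a1, Col22a1 and the lower type IV chains in tumors, by signals near the background.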
